A study of Mus musculus with 2 samples.

Results

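The 4 genes described here encode the constant parts of the antibody light chains of the mouse. Igkc encodes the kappa constant region, and Iglc1, Iglc2 and Iglc3 encode the lambda constant regions. They were taken by symbol and are 4 of the 32285 genes counted in spleen cells of 2 single-cell libraries. The ALLO library came from wild-type C57BL/6 mice given tail skin of HLA-A2.1 transgenic mice, C57BL/6-Tg(HLAA2.1)1Enge/J, at weeks 0 and 5. The SYN library came from wild-type C57BL/6 mice given wild-type C57BL/6 skin in the same way. Spleens were taken 4 weeks after the second graft, frozen as cell suspensions and thawed, and the thawed cells were passed over a dead cell removal column. Transcripts were then read from their 5′ ends with the 10x Genomics 5′ v2 kit. The labels do not say how many mice each library held. With 1 library a group, a difference between ALLO and SYN has no replicate check. Intervals given below are 95% intervals that cover counting error only, and are exact except for differences between shares.

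B cells were barcodes with at least 1000 UMIs (unique molecular identifiers, each standing for 1 captured transcript), at least 2 UMIs of Cd79a and Cd79b together and none of Cd3d, Cd3e or Cd3g. Cd79a and Cd79b carry the signal of the B cell receptor, and the Cd3 genes belong to the T cell receptor. This gave 6980 of 11185 ALLO barcodes, with a median of 3177 UMIs, and 6822 of 17777 SYN barcodes, with a median of 3002. Of these, 61 B cell barcodes occurred in both libraries. The second B cell marker Ms4a1 was read in 89.1% of the ALLO B cells, and the T cell gene Trac in 0.501%. In SYN they were read in 87.2% and 1.07%. Levels are CPM, the UMIs of a gene scaled to a common total for each cell class (counts per 1000000 UMIs).

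A light chain gene is built in the developing B cell by joining a variable segment to a joining segment upstream of a constant gene. Most mouse B cells use the kappa locus. A cell whose kappa joining fails, or whose receptor binds self, can go on to rearrange lambda, and one mature B cell as a rule keeps a single light chain. In the mouse lambda locus the variable segment Iglv1 lies upstream of Iglc3 and Iglc1, and the segments Iglv2 and Iglv3 lie upstream of Iglc2 and Iglc4 as well. Plasma cells, the antibody-secreting end stage, make very large amounts of light chain transcript.

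The first 120 bases of each constant exon are shown to let the 3 lambda genes be compared base by base. In GRCm38, with the GENCODE vM21 annotation, these bases are chr6:70726435-70726554 on the plus strand for Igkc (ENSMUSG00000076609). They are chr16:19061952-19062071 for Iglc1 (ENSMUSG00000105906), chr16:19198734-19198853 for Iglc2 (ENSMUSG00000076937) and chr16:19065562-19065681 for Iglc3 (ENSMUSG00000105547), all on the minus strand. Each stretch is coding sequence of an exon. Sequences run 5′ to 3′, and capitals in Iglc1 and Iglc3 mark bases that differ from Iglc2 when the whole coding parts are aligned.
Igkc: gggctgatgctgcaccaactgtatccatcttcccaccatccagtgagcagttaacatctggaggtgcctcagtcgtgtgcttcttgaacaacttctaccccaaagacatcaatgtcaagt
Iglc1: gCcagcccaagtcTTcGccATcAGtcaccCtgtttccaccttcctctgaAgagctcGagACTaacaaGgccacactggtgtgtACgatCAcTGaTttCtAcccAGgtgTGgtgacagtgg
Iglc2: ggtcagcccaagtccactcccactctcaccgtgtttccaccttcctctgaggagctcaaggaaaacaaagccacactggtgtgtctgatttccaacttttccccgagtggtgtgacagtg
Iglc3: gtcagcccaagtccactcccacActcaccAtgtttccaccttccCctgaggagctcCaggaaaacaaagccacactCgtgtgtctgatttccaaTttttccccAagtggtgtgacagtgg

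Iglc2 and Iglc3 were 96.2% identical over their aligned coding bases, with 11 mismatches, 1 gap and a longest shared run of 79 bases. Iglc1 was 72.3% identical to Iglc2 and 73.2% to Iglc3, with longest shared runs of 19 and 17 bases. Igkc was 50.3% to 52.9% identical to the 3 lambda genes and shared no run longer than 8 bases with them. Reads of Iglc2 and Iglc3 are therefore uncertain between these 2 genes, while Igkc, Iglc1 and the pair are distinct in sequence. An antisense gene, 2010309G21Rik, has an exon at chr16:19065561-19065653 that lies over the start of the Iglc3 exon, and the long noncoding gene Gm30211 spans Igkc on the same strand. How reads were assigned among these overlapping genes, and whether strand was used, is not known from the labels or file headers.

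All 4 constant genes were read at high levels in B cells of both libraries. In ALLO, Igkc stood at 1457 CPM (1443 to 1472), and in SYN at 1446 CPM (1430 to 1461). Iglc1 stood at 256.3 CPM in ALLO and 279.7 in SYN, Iglc2 at 1439 and 1585, and Iglc3 at 1176 and 1288. In T cells, which make no light chain, the same genes were at 26.0 and 18.9 CPM for Igkc, 2.72 and 3.11 for Iglc1, 11.5 and 9.11 for Iglc2 and 10.6 and 7.89 for Iglc3. After each cell was thinned to 1000 UMIs, Igkc was read in 64.5% of ALLO and 65.3% of SYN B cells and in 2.72% and 2.14% of T cells. Iglc2 was read in 68.5% and 71.1% of B cells and 1.23% and 1.09% of T cells, at median depths of 3177 and 3002 UMIs in B cells and 4226 and 4124 in T cells before thinning. Without thinning the shares were 89.8% and 87.9% of B cells for Igkc and 91.1% and 91.0% for Iglc2. The B cell levels of all 4 genes were thus far above the level read in T cells.

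The mix of the light chain transcripts also differed between the cell classes. In B cells the 3 Iglc genes together had 1.97 (1.94 to 1.99) UMIs for each Igkc UMI in ALLO and 2.18 (2.15 to 2.21) in SYN. In T cells of ALLO the same ratio was 0.951 (0.768 to 1.18), and in those of SYN 1.06 (0.859 to 1.32). The intervals of the B cells and T cells did not overlap in either library.

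By the larger of Igkc and the sum of Iglc1, Iglc2 and Iglc3, 5407 of 6495 assigned ALLO B cells were lambda, a share of 83.2% (82.3 to 84.1, Clopper-Pearson). In SYN it was 5471 of 6397 cells, 85.5% (84.6 to 86.4). Most of these cells carried both kinds of transcript, since 88.6% of ALLO and 86.7% of SYN B cells held at least 1 UMI of Igkc and of an Iglc gene. In 18.1% and 17.4% of the B cells the sums lay within 1 UMI of each other, and in 37.8% and 37.2% the larger sum was under 3 UMIs or under 2 times the smaller. The variable segments gave another picture. Assigning cells by the summed Igkv segments against the sum of Iglv1, Iglv2 and Iglv3, with at least 3 UMIs and 2 times the other sum, left 334 lambda cells of 6595 in ALLO, 5.06% (4.55 to 5.62). In SYN it left 267 of 6496, 4.11% (3.64 to 4.62). This second assignment was added after the constant gene shares had been seen.

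The assignments went against each other in most cells with Igkv segments. Of the cells with Igkv segments, 77.3% in ALLO and 80.2% in SYN were lambda by their constant genes. Of the cells with Iglv segments, 92.5% and 93.6% were. The constant genes therefore put most B cells of either kind into the lambda class, which is named constant-gene lambda below. Cells named by their segments are called Igkv cells and Iglv cells, and plasma cells are left out of them unless stated.

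**Figure D1:**
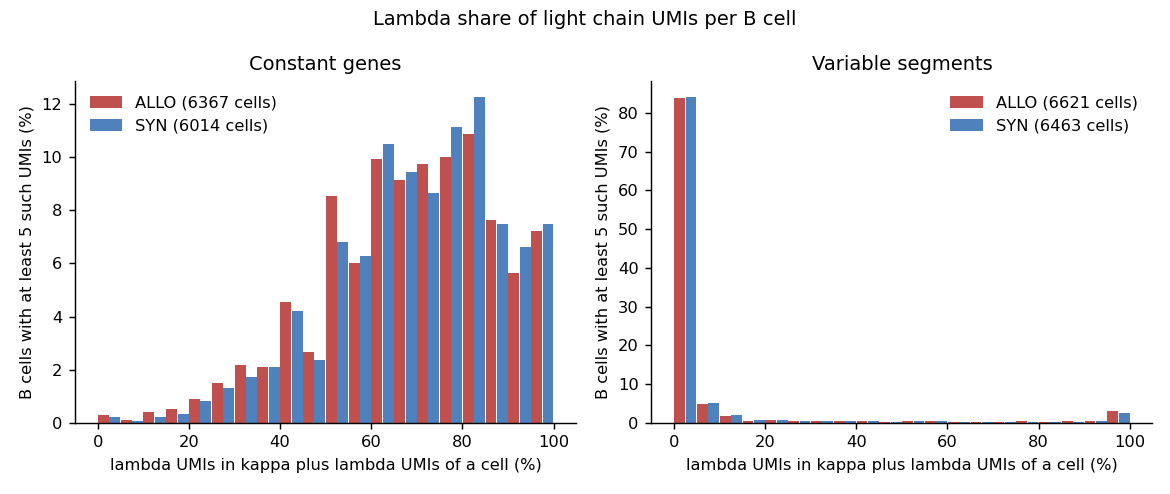
Lambda share of the light chain UMIs of each B cell with at least 5 such UMIs, from the constant genes (left) and from the variable segments (right), in 5-point bins, with the percent of cells on the y axis and the 2 libraries as bar colours. Constant genes spread over 1 broad hump in which 66.9% of ALLO and 65.0% of SYN cells lie between 20% and 80% lambda, and variable segments leave 4.70% and 4.19% of cells there.

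The histograms of the lambda share per cell show the same difference without a class limit. Constant gene UMIs formed 1 broad hump above 50%, and variable segment UMIs formed a peak near 0 and a small one near 100%. Cells with at least 5 UMIs of both Igkv and Iglv segments numbered 360 in ALLO and 288 in SYN, and Scrublet, a doublet caller, marked 1 of them in each library. It marked 0.301% and 0.733% of all B cells. The cells with both had median UMIs of 3834 and 3503, above the 3177 and 3002 of all B cells. Whether these barcodes each held several B cells was not tested. Across the 51 Igkv genes that led at least 30 cells in each library, the constant-gene lambda share ran from 69.0% to 94.6% in ALLO and from 72.2% to 92.1% in SYN. The rank correlation between the libraries was only 0.15 across the 51 genes, which are not independent replicates, so no repeatable order is shown. The gene with the lowest ALLO share, Igkv4-72, stood at 69.0% (55.5 to 80.5) in ALLO and 91.5% in SYN.

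Between Iglv and Igkv cells, 3 of the 4 constant genes differed. This contrast was fitted on 4 UMI sums, Igkv and Iglv cells of each library with plasma cells included, with library as a term, so that the 2 libraries are its replicates. The variable segments chose the cells, and constant gene UMIs were not counted in that choice. A light chain transcript carries both parts, however, so the contrast does not test the constant genes independently of the choice. Igkc stood at 1541 CPM in Igkv and 482 in Iglv cells of ALLO, and at 1511 and 408 in SYN. It was lower in Iglv cells, with a log2 ratio of -1.79 (SE 0.07, n = 2 libraries, edgeR quasi-likelihood test, adjusted p = 1.29e-09). Igkc was at 0 UMIs in 205 of 333 Iglv cells in ALLO and in 167 of 266 in SYN. By comparison it was at 0 in 378 of 6245 and 546 of 6210 Igkv cells. Kappa transcript thus separated the kinds of cell, though not completely.

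Iglc1 and Iglc3 moved in opposite directions. Iglc1 stood at 244 CPM in Igkv and 448 in Iglv cells of ALLO, and at 268 and 537 in SYN, a log2 ratio of 0.92 (SE 0.08, edgeR adjusted p = 7.98e-06). Iglc3 stood at 1222 and 703 CPM in ALLO and 1331 and 649 in SYN, a log2 ratio of -0.93 (SE 0.07, edgeR adjusted p = 1.24e-06). A lambda constant gene was therefore lower in the cells with lambda segments. Iglc2 stood at 1447 and 1540 CPM in ALLO and 1573 and 2023 in SYN, and its log2 ratio of 0.21 (SE 0.06, edgeR adjusted p = 0.261) did not pass. In the SYN library 1 Iglv plasma cell held 372 of the 1761 Iglc2 UMIs of the Iglv cells. Of all other genes in the contrast, 61 of 11400 (0.535%) were called. The overlapping genes moved too, Gm30211 with a log2 ratio of -1.52 (edgeR adjusted p = 6.53e-07) and 2010309G21Rik with -0.95 (edgeR adjusted p = 0.00247).

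**Figure D2:**
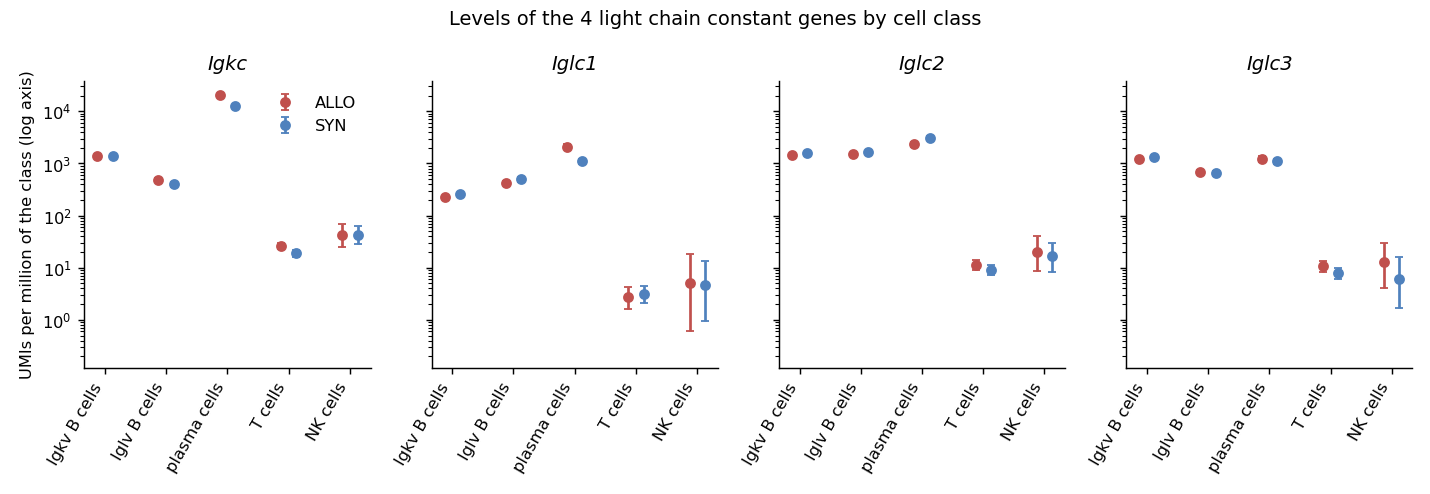
Levels of the 4 constant genes in CPM on a log axis, in Igkv B cells, Iglv B cells, plasma cells, T cells and NK cells, with 1 point per library and bars for 95% exact Poisson intervals. Igkc is lower in Iglv than in Igkv cells, Iglc1 is higher, Iglc2 is nearly level and Iglc3 is lower, and T cells and NK cells lie under every B cell class.

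The plot of levels by cell class shows the order of each gene with its counting error. Igkc was highest in plasma cells, at 20770 CPM in ALLO and 12690 in SYN, followed by Igkv cells at 1371 and 1377 and Iglv cells at 486 and 399. NK cells stood at 43.1 CPM in both libraries and their intervals met those of T cells in ALLO. In SYN 1 NK cell held 16 of the 28 Igkc UMIs, and without it the level was 18.6 CPM (9.59 to 32.4), which met that of T cells. Iglc1 took the order plasma cells (2114 and 1105 CPM), Iglv cells (421 and 497) and Igkv cells (229 and 260). Iglc3 was at 1218 and 1102 CPM in plasma cells, 1223 and 1333 in Igkv cells and 690 and 649 in Iglv cells. For Iglc3 the intervals of plasma and Igkv cells met in ALLO and did not meet in SYN.

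The leading Iglv segment of a cell went with its lambda constant genes. Cells led by Iglv1, 214 in ALLO and 173 in SYN, held a mean of 1.73 and 1.79 Iglc1 UMIs, 5.65 and 5.50 Iglc2 UMIs and 1.94 and 1.58 Iglc3 UMIs. Cells led by Iglv2, 42 in each library, held 4.33 and 3.14 Iglc3 UMIs and 1.24 and 0.857 Iglc1 UMIs. Cells led by Iglv3, 23 and 18, held 3.83 and 3.67 Iglc3 UMIs and 0.609 and 0.667 Iglc1 UMIs. Igkv cells held 4.54 and 4.55 Iglc3 UMIs and 0.850 and 0.888 Iglc1 UMIs. For Iglc3 the Iglv1 cells lay below the other 3 classes by intervals that did not overlap in either library. For Iglc1 they lay above Igkv and Iglv3 cells in the same way, while the intervals of Iglv1 and Iglv2 cells met in ALLO. As a share of all Iglc UMIs, Iglc3 made up 20.8% in Iglv1 cells of ALLO and 17.9% in SYN, against 42.3% and 42.1% in Igkv cells. Iglc2 made up 60.6% and 62.0% of the Iglc UMIs in Iglv1 cells and 49.8% and 49.6% in Igkv cells.

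Iglc2 was read in most Iglv1 cells, where it had a UMI in all but 22 of the 214 ALLO cells and 18 of the 173 SYN cells. Iglc1 had a UMI in all but 61 and 47 of them. Only 19 Iglv1 cells in ALLO (8.88%) and 20 in SYN (11.6%) were led by Iglc1, whereas 134 and 122 were led by Iglc2. These are descriptions of 1 library a group, and the near-identity of Iglc2 and Iglc3 shown in the sequences above limits the split between them.

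**Figure D3:**
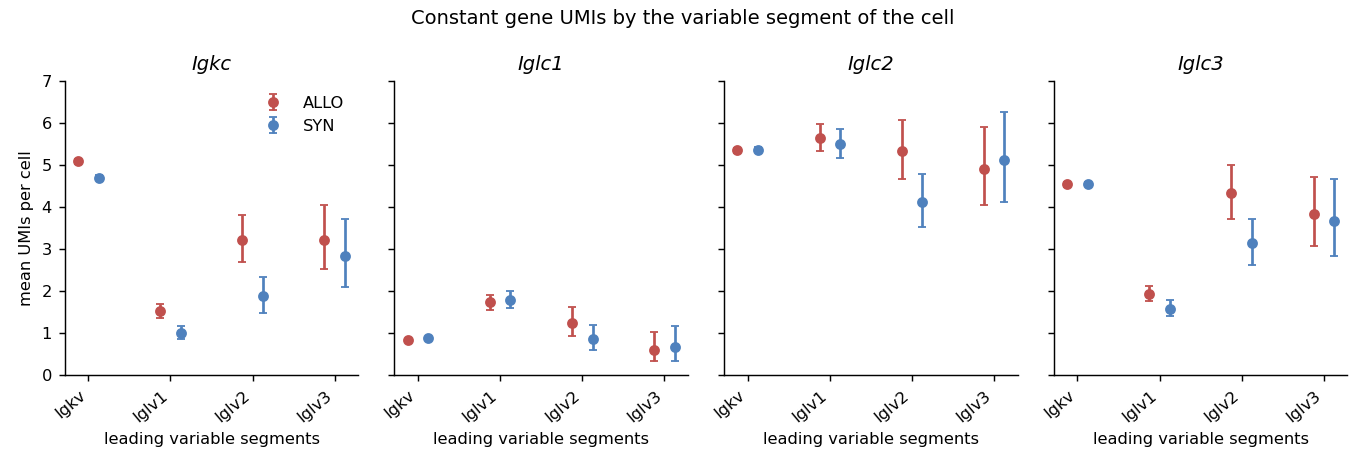
Mean UMIs per cell of each constant gene in cells with Igkv segments and in cells led by Iglv1, Iglv2 or Iglv3, with 1 point per library and bars for 95% exact Poisson intervals of the mean. Igkc and Iglc3 are lowest and Iglc1 is highest in Iglv1 cells, and Iglc2 lies between 4.12 and 5.65 UMIs in all the Iglv classes.

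The pairing plot also shows Igkc by leading segment. Iglv1 cells held a mean of 1.52 Igkc UMIs in ALLO and 1.00 in SYN, Iglv2 cells held 3.21 and 1.88, and Iglv3 cells held 3.22 and 2.83. Igkv cells held 5.09 and 4.70. The mean of Igkc was therefore lower in Iglv1 cells than in Iglv2 or Iglv3 cells in both libraries. The intervals did not overlap, but they leave out the spread between cells. Igkc was at 0 UMIs in 135 of 214 Iglv1, 24 of 42 Iglv2 and 12 of 23 Iglv3 cells of ALLO, with a median of 0 in each. In SYN it was at 0 in 117 of 173, 19 of 42 and 9 of 18 cells.

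Within Igkv cells, Iglc1 went with the amount of kappa segment transcript, in bins chosen after the data were seen. In ALLO cells with 3 to 9, 10 to 29, 30 to 99 and at least 100 Igkv UMIs, Iglc1 stood at 152, 187, 248 and 519 CPM. In SYN the same bins held 189, 198, 288 and 633 CPM. Igkc over these bins was 1453, 1346, 1361 and 1599 CPM in ALLO and 1227, 1382, 1391 and 1457 in SYN. Iglc3 ran from 1165 to 1232 CPM in ALLO and from 1183 to 1380 in SYN, and Iglc2 from 1296 to 1660 and from 1374 to 1652. Iglc1 thus rose over 3-fold from the lowest to the highest bin in both libraries while the highest and lowest bins of each other member were less than 1.5-fold apart. The top bin held 109 and 86 cells, and total UMIs rose over the bins as well, from a median of 2372 to one of 6845 in ALLO and from 1593 up to 6805 in SYN. The part of cell size in this was not tested.

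B cell subsets were marked by single genes. Fcer2a, which encodes the follicular B cell surface protein CD23, marked 4987 ALLO and 4669 SYN cells. Myof or S1pr3, genes of marginal zone B cells, marked 460 and 412 cells. Cd93, found on newly arrived transitional B cells, marked 144 and 127 cells. In ALLO the marginal zone gene Cr2 was read in 81.5% of Myof/S1pr3+ cells against 50.7% of all B cells. The transitional gene Vpreb3 was read in 65.3% of ALLO Cd93+ cells against 42.1%. These shares were not matched for depth. Median UMIs were 4919 in ALLO Myof/S1pr3+ cells and 4018 in ALLO Cd93+ cells, against 3177 in all ALLO B cells. A cell could be in more than 1 subset, and 67.4% of the ALLO and 63.8% of the SYN Cd93+ cells also held Fcer2a. So did 48.9% of the ALLO and 46.1% of the SYN Myof/S1pr3+ cells.

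The constant-gene lambda share had its highest value among these 3 subsets in Cd93+ cells, an order that other settings did not keep. In the ALLO library it was 90.6% (84.5 to 94.9) there, and in the SYN library 90.2% (83.6 to 94.9). In Fcer2a+ cells it was 84.3% (83.2 to 85.3) and 86.2% (85.2 to 87.2), and in Myof/S1pr3+ cells 85.6% and 85.5%. The Cd93+ share exceeded the Fcer2a+ share by 6.38 points (0.299 to 10.3) in ALLO and by 4.01 points (-2.59 to 8.23) in SYN. Intervals of differences between shares are Newcombe intervals, which take the subsets as separate cells. Most Cd93+ cells also held Fcer2a, so these intervals are not valid as tests, and the SYN interval met 0. With the larger sum at least 3 UMIs and 2 times the smaller, the differences were 1.38 points (-5.06 to 5.04) in ALLO and -0.0263 points in SYN, where Fcer2a+ cells were then level with Cd93+ cells. Among cells in 1 subset only the ALLO difference was 0.892 points, and with at least 2 UMIs of the subset gene the SYN difference was -5.63 points. The Myof/S1pr3+ and Fcer2a+ shares differed by 1.31 points (-2.46 to 4.50) in ALLO and -0.702 points (-4.64 to 2.60) in SYN. An exact permutation test over 2 paired libraries cannot go below p = 0.5, and no other test of the order was run.

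By variable segments the shares were far lower and the Cd93+ cells were again the highest in ALLO. They were lambda in 13 of 136 cells (9.56%, 5.19 to 15.8) in ALLO and 6 of 119 (5.04%, 1.87 to 10.7) in SYN. Fcer2a+ cells were lambda in 4.79% (4.20 to 5.44) and 3.83% (3.29 to 4.43), and Myof/S1pr3+ cells in 5.35% and 5.37%. The Cd93+ share exceeded the Fcer2a+ share by 4.77 points (0.827 to 10.9) in ALLO and by 1.21 points (-1.57 to 6.76) in SYN. The SYN interval met 0, and both intervals leave out that the subsets share cells.

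**Figure D4:**
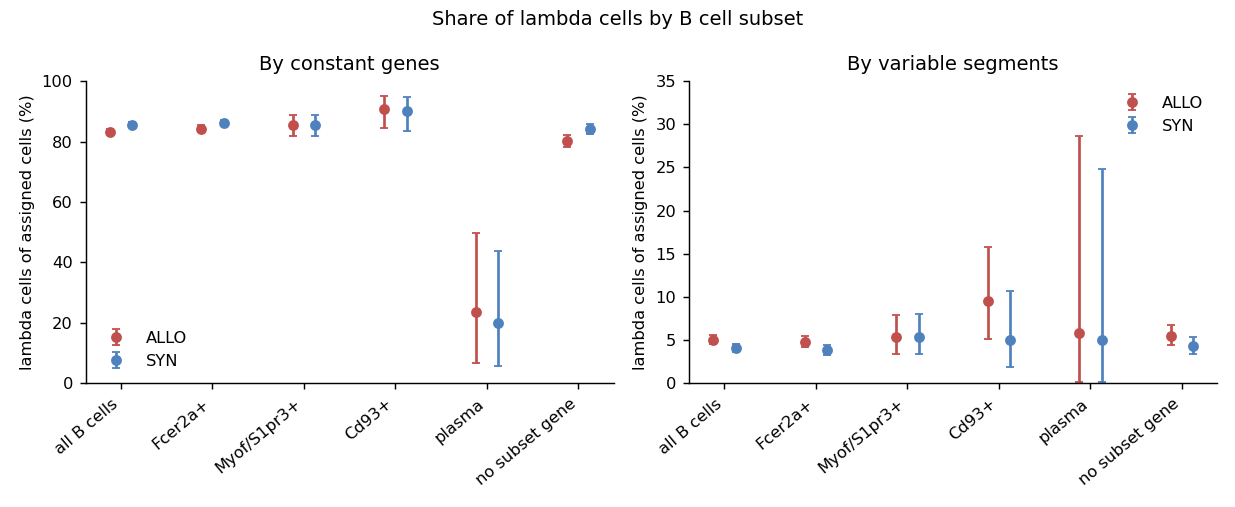
Share of lambda cells among assigned B cells, by constant genes (left, axis 0 to 100%) and by variable segments (right, axis 0 to 35%), for all B cells, 4 subsets and cells with none of the subset genes, with 1 point per library and 95% Clopper-Pearson bars. By constant genes plasma cells are the only subset under 80%, and by variable segments every share lies under 10%.

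The plot of lambda shares shows that the assignments differ most outside plasma cells. Constant gene levels in the subsets also differed. Among Igkv cells, Iglc1 stood at 456 CPM (402 to 514) in Cd93+ and 219 CPM (212 to 226) in Fcer2a+ cells of ALLO, and at 605 (540 to 677) and 239 (231 to 247) in SYN. Iglc2 stood at 2027 and 1446 CPM in ALLO and at 2145 and 1570 in SYN. Iglc1 and Iglc2 were higher in the Cd93+ cells of both libraries by intervals that did not overlap. Iglc3 stood at 1286 (1195 to 1382) in Cd93+ against 1246 CPM in Fcer2a+ cells of ALLO and at 1289 (1192 to 1391) against 1359 in SYN, and so did not share this difference. Igkc stood at 1180 (1093 to 1272) against 1370 CPM in ALLO and 1361 (1262 to 1466) against 1391 in SYN. In Myof/S1pr3+ Igkv cells Iglc2 stood at 1230 and 1441 CPM and Iglc3 at 1025 and 1117, all below the Fcer2a+ values of 1446, 1570, 1246 and 1359.

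Plasma cells, B cells with at least 3 Jchain and 1 Xbp1 UMIs, numbered 17 in ALLO and 20 in SYN. Jchain encodes the joining chain of secreted IgM and IgA, and Xbp1 drives the secretory programme. Tnfrsf17, which encodes the plasma cell survival receptor BCMA, was read in 52.9% of the ALLO and 50.0% of the SYN plasma cells, against 0.143% and 0.205% of all B cells. Igkc ranged from 0 to 1179 UMIs per cell with a median of 61 in ALLO, and from 5 to 521 with a median of 78.5 in SYN. The 3 highest cells held 62.4% and 39.7% of these UMIs. The constant genes assigned 4 of 17 ALLO plasma cells (23.5%, 6.81 to 49.9) and 4 of 20 SYN plasma cells (20%, 5.73 to 43.7) to lambda. With at least 3 UMIs and 2 times the smaller sum the shares were 18.8% and 6.25%. The variable segments assigned 1 of 17 (5.88%) and 1 of 20 (5.00%). In these cells, unlike the other B cells, both assignments made kappa the larger class.

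The Iglv plasma cells can be described one by one. The ALLO cell held 685 Iglv UMIs and no Igkv UMI, with 71 Iglc2, 38 Iglc1 and 22 Iglc3 UMIs and no Igkc UMI, and its leading heavy chain gene was Ighg2b. The SYN cell held 4835 Iglv UMIs and no Igkv UMI, with 372 Iglc2, 44 Iglc1 and 12 Iglc3 UMIs and 15 Igkc UMIs, and was led by Ighm. Among the Igkv plasma cells, 1 SYN cell had 5853 Igkv and 60 Iglv UMIs yet held 325 Igkc and 341 Iglc UMIs, and so counted as lambda by the rule.

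Between the libraries none of the 4 genes in B cells was 1.5-fold apart, against 496 of 11214 genes (4.42%) with at least 50 UMIs. The level in ALLO divided by that in SYN was 1.01 (0.993 to 1.02) for Igkc, 0.916 (0.885 to 0.948) for Iglc1, 0.908 (0.895 to 0.921) for Iglc2 and 0.913 (0.898 to 0.927) for Iglc3. The intervals of the 3 lambda genes lay below 1 and that of Igkc met 1, and the median gene had a log2 ratio of -0.07. Without plasma cells the Igkc ratio was 0.985 (0.970 to 1.00). The share of Iglv cells went the other way, with a ratio of ALLO to SYN of 1.23 (1.05 to 1.45) in all B cells and 1.251 (1.02 to 1.53) in Fcer2a+ cells. In Myof/S1pr3+ cells that ratio was 0.996 (0.527 to 1.89). With 1 library a group these differences cannot be told apart from differences between the mice or the preparations.

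Cells of either light chain were mostly led by the same heavy chain gene. Ighm, the gene of IgM, was the leading heavy chain gene in 86.7% of constant-gene kappa and 90.2% of constant-gene lambda cells of ALLO, and in 85.8% and 88.6% in SYN, plasma cells left out. By variable segments it led in 89.6% (88.5 to 90.5) of Igkv and 88.8% (83.9 to 92.6) of Iglv cells in ALLO, and in 88.1% and 91.0% in SYN. The intervals by variable segment overlapped in both libraries. A cell was counted here when 1 heavy chain gene had at least 3 UMIs and 2 times the next.

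The largest differences of other genes between constant-gene kappa and lambda cells were in genes of plasma cells. With all B cells, 67 of 11471 other genes (0.584%) passed an edgeR adjusted p of 0.05. Of them, 28 were higher and 39 lower in constant-gene lambda cells. Kappa and lambda cells mean these constant-gene classes throughout this comparison. Of the constant-gene lambda cells, 89.5% in ALLO and 91.3% in SYN had Igkv segments, and 5.7% and 4.6% had Iglv segments. The light chain members were used to assign the cells, and their differences here are no result. Of the 12 antibody secretion genes, 5 were lower in lambda cells and none was higher: Jchain, Xbp1, Tnfrsf17, Derl3 and Edem1, the last 2 of which take part in the disposal of misfolded secretory proteins. Tnfrsf17 had a log2 ratio of -7.02 (SE 0.41, edgeR adjusted p = 0.00104) and Jchain one of -6.20 (SE 0.55, edgeR adjusted p = 0.00726). Ccr10, a homing receptor of IgA-secreting cells, had one of -6.47 and Prg2, the eosinophil major basic protein gene, one of -5.96. The 6 plasma markers summed to 2757 CPM in the constant-gene kappa cells of ALLO and 121 in the lambda cells, and to 1980 and 169 in SYN. In the receptor complex list, Cd79a and Cd79b were higher in lambda cells, by 0.17 and 0.21 on the log2 scale. Both genes also chose the B cells, so their values are not independent of that rule. No member of the marginal zone, follicular, germinal centre or transitional lists passed.

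Without plasma cells, an alternative added after these values were seen, 186 of 11386 genes (1.63%) passed, 101 higher and 85 lower in constant-gene lambda cells. Of the 11 antibody secretion genes then tested, Mzb1 and Pdia4 were higher and Jchain was lower in lambda cells. Jchain and Xbp1 counts had chosen the cells removed, so their values here are not independent of that choice. The list's median log2 ratio was 0.23, against -0.71 with plasma cells. Derl3 and Edem1 turned to 0.51 and 0.25. Vpreb3, a chaperone-like gene of the early B cell receptor, was at 189 CPM in kappa and 227 in lambda cells of ALLO and at 268 and 306 in SYN, a log2 ratio of 0.25 (SE 0.05, edgeR adjusted p = 0.0228). Sox4, a transcription factor of early lymphocytes, had a log2 ratio of 0.86 (edgeR adjusted p = 0.0406), and the inhibitory co-receptor gene Cd72 one of 0.26 (edgeR adjusted p = 0.0167). In the marginal zone list, Plac8 rose by 0.45 and Mzb1 by 0.31, and the Notch target Dtx1 fell by 0.29, while 12 of its 15 members did not pass. Of the 15 receptor signalling response genes, Nfkbid, which encodes an inhibitor of NF-kB, fell by 0.46 and the amino acid oxidase gene Il4i1 by 0.31, none rose, and the list's median log2 ratio was -0.17 against 0.00 over all genes. Among the genes with the largest changes, Sapcd1 was 1.59 higher, Pcp4, a calmodulin-binding protein gene, 1.11 higher and the histone gene Hist1h1b 1.09 higher on the log2 scale.

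Of the transitional list, 2 of 7 tested genes were thus higher in constant-gene lambda cells and none was lower. Of the germinal centre list none of 8 passed, with a median log2 ratio of -0.75. Ribosomal protein genes, a list added after the values were seen, were higher in lambda cells in 26 of 81 cases and lower in none, by 0.06 to 0.15 on the log2 scale. Markers of other cells moved with this contrast in SYN. With plasma cells included, the 2 neutrophil markers summed there to 644 CPM in kappa and 276 in lambda cells. Single cells held much of this, 1197 of the 1971 UMIs in kappa and 2046 of the 5257 in lambda cells. In ALLO the same sum was 3.13 and 4.04 CPM. The part of these markers in the contrast was not tested. Lyz2, a myeloid gene that was lower in lambda cells (log2 ratio -2.34), had 95.2% of its ALLO kappa UMIs in 1 cell. Within Igkv cells alone the same split called 320 genes, and 182 of the 186 genes were among them with the same direction. This fit held 1010 of the 1075 kappa and 4838 of the 5403 lambda cells of ALLO. In SYN it held 855 of 910 and 4991 of 5467. With most cells shared, the overlap of calls is no separate support.

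Between Iglv and Igkv cells, the 61 genes called were 22 higher and 39 lower, and 33 of them were heavy chain genes. Cd24a, a surface protein abundant on transitional B cells, was at 410 CPM in Igkv and 622 in Iglv cells of ALLO and at 412 and 602 in SYN, a log2 ratio of 0.56 (SE 0.08, edgeR adjusted p = 0.000573). S100a6, a calcium-binding protein gene of memory lymphocytes, was at 29.4 and 67.9 CPM in ALLO and 31.5 and 71.2 in SYN, a log2 ratio of 1.18 (SE 0.14, edgeR adjusted p = 0.000249). Both genes were higher in Iglv cells of each library. For S100a6, 1 cell held 27.4% of the Iglv UMIs in ALLO and 37.1% in SYN. Mzb1, a chaperone of antibody assembly, rose by 0.46 (edgeR adjusted p = 0.00902), but by 0.23 without plasma cells, where it did not pass (edgeR adjusted p = 0.173). The immediate early gene Egr1 rose by 0.56 (edgeR adjusted p = 0.0196). Agbl1, a glutamate-removing carboxypeptidase gene, stood at 2.78 and 19.4 CPM in ALLO and 3.73 and 29.9 in SYN, and Wfdc21 at 3.72 and 22.6 and at 9.94 and 46.0. Their log2 ratios were 2.89 and 2.36, from 24 and 26 UMIs and 28 and 40 UMIs in the Iglv cells.

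H2-Aa and H2-Eb1, which encode chains of MHC class II, were lower in Iglv cells and fell by 0.20 and 0.22 on the log2 scale (edgeR adjusted p = 0.0158 and 0.0228). H2-Ab1, a further chain gene chosen after its values were seen, had a log2 ratio of -0.19 and did not pass (edgeR adjusted p = 0.0886). Rapgef4, from the marginal zone list, fell by 0.89, and the actin-severing gelsolin gene Gsn by 0.83. None of the 12 receptor complex genes, 8 follicular genes or 81 ribosomal protein genes passed. Igha, the gene of IgA, fell by 3.45 with the Igha plasma cells on the kappa side, and Ighg2b rose by 1.88, with 98.4% of its ALLO Iglv UMIs in 1 cell. Without plasma cells the log2 ratio of Ighg2b was -0.98. Derl3 rose by 1.94, and in each library 1 cell held 72.2% of its Iglv UMIs in ALLO and 71.1% in SYN.

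Markers of other cells also moved with the Iglv contrast. Nkg7 and Gzma of the NK list and Lyz2, S100a8 and S100a9 of the myeloid list were lower in Iglv cells. The 3 NK markers summed to 20.7 CPM in Igkv and 2.45 in Iglv cells of ALLO and to 40.2 and 10.6 in SYN, and the 2 neutrophil markers to 3.88 and 2.45 in ALLO and 316 and 9.40 in SYN. In SYN 1 cell held 2046 of the 6705 neutrophil marker UMIs of the Igkv cells. The part of these markers in the other differences was not tested. Of the 61 genes, 16 were called in the same direction without plasma cells by constant genes, which is 26.2% of the 61 and 8.60% of the 186.

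**Figure D5:**
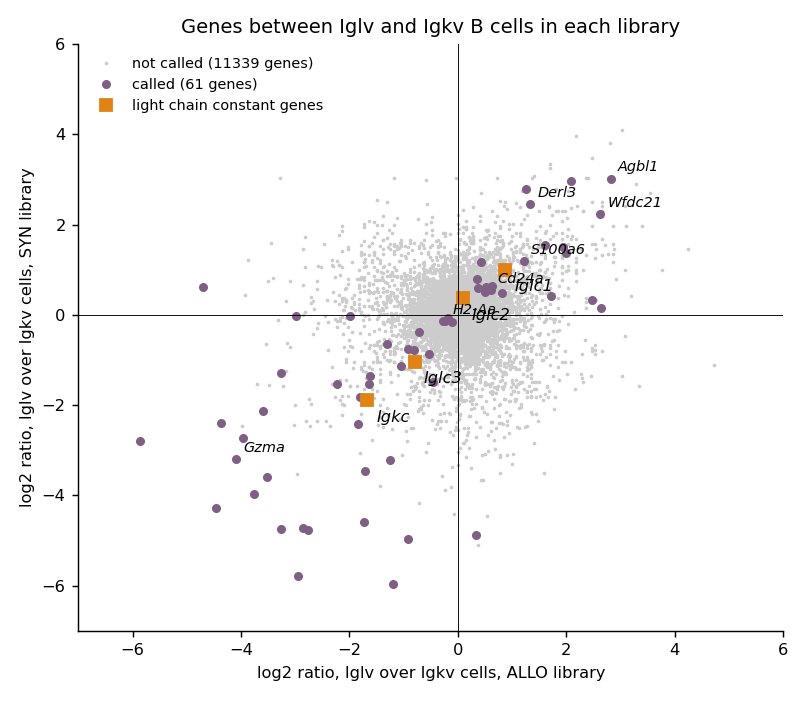
Log2 ratio of each tested gene between Iglv and Igkv B cells in the ALLO library (x axis) and in the SYN library (y axis), with 11339 genes not called in grey, 61 called genes in purple and the 4 constant genes as orange squares. Igkc and Iglc3 lie below 0 and Iglc1 above 0 in both libraries, and 1 gene lies outside the axes.

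The scatter of per-library ratios shows that the calls rest on both libraries for the constant genes, Cd24a and S100a6. In ALLO and SYN alone the log2 ratios were -1.68 and -1.89 for Igkc, 0.88 and 1.00 for Iglc1, -0.80 and -1.03 for Iglc3, and 0.09 and 0.36 for Iglc2. Cd24a had 0.60 and 0.55, and S100a6 had 1.22 and 1.19. S100a9, in contrast, had -0.92 and -4.96. With 1 residual degree of freedom these tests lean on the spread shared over all genes.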

How the data were processed

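Spleen cells of 2 libraries, ALLO and SYN, were profiled with the 10x Genomics 5′ v2 kit. The deposited files hold raw UMI counts per gene and barcode, and the authors' tools were Cell Ranger 6.0.2 and FastQC with the mm10 build, per the submitters' processing notes. No label or header states the annotation release, the strand setting or how reads matching several genes were treated. The libraries held 39476214 UMIs in 11185 barcodes (ALLO) and 45435231 UMIs in 17777 barcodes (SYN), and 264 barcodes occurred in both. Groups came from the sample labels, with 1 library a group.

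Barcodes with at least 1000 UMIs were kept. B cells, subsets and light chain classes were set by the count limits given with the results. Doublets were marked with Scrublet in scanpy 1.11.5 (193 ALLO barcodes, 1.94%, and 409 SYN barcodes, 3.63%) and removed only as an alternative. UMIs were summed per library and light chain class and tested with edgeR 4.0.16 in R 4.3.3 (filterByExpr, TMM, quasi-likelihood test, library as a term, 1 residual degree of freedom, Benjamini-Hochberg over all genes, adjusted p threshold 0.05), with DESeq2 1.42.0 as an alternative. Counts of called genes leave out the light chain genes. Levels have exact Poisson intervals, shares Clopper-Pearson intervals and differences between shares Newcombe intervals. Other steps used numpy 2.4.6, scipy 1.17.1, pandas 2.3.3, matplotlib 3.10.9 and biopython 1.88. Sequences were read from GRCm38 (mm10).

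Named genes were the 4 members, the members of fixed lists past the threshold, and the 12 largest changes in each direction that had the same sign in both libraries, without immunoglobulin segments and predicted genes. Gm30211 and 2010309G21Rik, which span or overlap a member in the annotation, were added. The members and lists were chosen with earlier results of these data known. On simulated counts with known changes, the kappa against lambda test recovered 84 of 100 genes changed 2-fold and 99 of 100 changed 4-fold, with 8 false calls among 11563 genes. The Igkv against Iglv test recovered 55 and 82 of 100, with 7 false calls among 11531 genes. The simulated counts had the same fixed spread for every gene, and only genes above a limit on the mean count were changed. Sums that rest on single cells were not simulated, so the false calls do not give the error rate in these data.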

Additional observations from a re-analysis of the deposited data

Results flagged for a closer look

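Light chain constant transcripts were also read in 4 other cell classes, of which the results above used only the NK cells. These classes had no Cd79a, Cd79b or Cd3 UMI, except the Siglech class, which was limited by Cd79a alone, and were set after the data were seen. Igkc stood at 43.1 CPM in 209 NK cells of SYN, against 18.9 CPM in SYN T cells, but 1 cell held 16 of the 28 UMIs. Without that cell, a check added after the data were seen, it stood at 18.6 CPM (9.59 to 32.4). Iglc2 stood at 34.9 CPM in 60 neutrophils of SYN, from 5 UMIs in 5 cells, against 9.11 CPM in T cells. Igkc stood at 186 CPM in 30 myeloid cells of SYN, from 30 UMIs in 5 cells, of which 1 cell held 20. Without that cell it stood at 65.5 CPM (31.4 to 121), and the 12 ALLO myeloid cells held no Igkc UMI. Iglc3 stood at 602 CPM in 9 SYN cells with at least 2 UMIs of Siglech, a surface gene of plasmacytoid dendritic cells, and 6 of the 9 cells held Iglc3 UMIs (9, 8, 6, 4, 4 and 3). By the B cell rule 2 of the 9 cells counted as B cells, 1 of them with 4 Iglc3 UMIs. Another of the 9 held 20 Igkc UMIs. All 9 were at 0 for the B cell gene Ms4a1 and had at most 1 Igkv UMI. The 1 ALLO cell of that kind held 9 Iglc3 UMIs and no Igkc, Iglc1 or Iglc2 UMI. The source of these transcripts was not tested.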

How the results depend on the processing

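No paired analysis was possible because ALLO and SYN have 1 library each, so no test compares them. The fits between light chain classes paired them within each library through the library term. The plasma and Cd93+ classes held few cells, and their intervals are wide. The constant-gene lambda share was 90.6% in ALLO and 92.8% in SYN with a larger sum of at least 3 UMIs and 2 times the smaller, 77.7% and 80.7% after thinning to 1000 UMIs, 84.4% in ALLO above 2000 UMIs, and 5.06% and 4.11% by variable segments. Plasma cells were lambda in 5.88% and 5% by variable segments. With at least 2 UMIs of the subset gene the Cd93+ minus Fcer2a+ difference in SYN was -5.63 points.

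The 67 genes between constant-gene kappa and lambda cells became 543 with no filter, 8 with no library term, 186 with the stricter assignment, 186 without plasma cells and 122 without shared barcodes. DESeq2 called 54, split 30 higher and 24 lower. Without plasma cells, the 186 became 53 with DESeq2, 459 with no filter, 320 within Igkv cells and 0 by edgeR with no library term, where 814 had an unadjusted p under 0.05. The 61 between Iglv and Igkv cells became 20 with DESeq2, 133 with no filter and 9 with no library term.

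Without immunoglobulin UMIs in the total, Igkc stood at 1489 and 1478 CPM, Iglc2 at 1470 and 1621 and Iglc3 at 1201 and 1317. The ALLO over SYN ratio was 0.985 for Igkc without plasma cells and 0.926 for Iglc2 after thinning. By the isotype gene with the most UMIs, Ighm led in 79.5% of constant-gene kappa and 82.4% of constant-gene lambda cells in ALLO. In SYN it led in 78.5% and 81.4%. By variable segments it led in 89.6% of Igkv and 88.8% of Iglv cells in ALLO and in 91.0% of Iglv cells in SYN.

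Of the named genes, 22 of 34 between constant-gene kappa and lambda cells no longer passed with no library term. Of the 36 between Iglv and Igkv cells, 18 no longer passed with DESeq2 and 24 with no library term. Some signs turned. Lambda over kappa in follicular cells, the log2 ratio was 1.02 for Tent5c, 0.13 for Selenom, 0.30 for Ly6c2, 0.0212 for Xbp1 and 0.28 for Edem1. Without plasma cells it was 0.15 for Tent5c, 0.51 for Derl3 and 0.25 for Edem1. For S100a8 it was 4.45 with the stricter assignment, 0.0273 in ALLO alone and -1.29 in SYN alone, and for S100a9 without plasma cells 0.41 in ALLO alone and -1.25 in SYN alone. Iglv over Igkv, Ighg2b had -0.98 without plasma cells and -0.65 in follicular cells, and S100a8 had 0.33 in ALLO alone and -4.88 in SYN alone. The cause was not tested.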
